A study of Saccharomyces cerevisiae with 8 samples.

Results

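The manganese responses of 2 strains of *Saccharomyces cerevisiae* were compared gene by gene as a difference of differences. For each gene, the change of the CRN/PPN1 strain between manganese and control medium was taken minus the same change in the CRN strain, on the log2 scale, and is called the interaction here. A positive interaction means that the level in manganese relative to control medium was higher in CRN/PPN1 than in CRN, whatever the direction of each change. All 8 of the 8 libraries of the series enter this comparison, and 5778 of the 7126 genes in the deposited table had enough counts to be tested, with at least 2 CPM (counts scaled to library size) in at least 4 libraries. Levels are given as CPM after TMM scaling of the libraries, and compare libraries for 1 gene, not different genes.

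The libraries fall into 4 groups of 2: CRN/PPN1 with 5 mM MnSO4 harvested after 16 h, CRN/PPN1 in control medium after 12 h, CRN with 5 mM MnSO4 after 40 h, and CRN in control medium after 12 h. CRN is a haploid strain (MATa ade2 his3 ura3) in which the chromosomal PPN1 gene was replaced by CgTRP1, so its label "WT" refers to a strain without PPN1. CRN/PPN1 is the same strain carrying the vector pMB1/PPN1 Sc, and both strains therefore lack the chromosomal gene. The labels give no vector for CRN, and no strain with its own PPN1 is among the groups. All cultures were grown at 29 °C in YPD (glucose, peptone and yeast extract) with 14 mM KH2PO4. Because growth time differs with strain and medium, it cannot be told apart from the interaction. The paired libraries come from cultures grown at the same time, so p-values measure the spread between such cultures only.

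PPN1 encodes a polyphosphatase, an enzyme that cuts inorganic polyphosphate, the chain of phosphate residues that yeast makes with the VTC complex and stores mainly in the vacuole, where it binds metal cations. Manganese is an essential metal that enters yeast through transporters of the Smf family and through phosphate transporters, and that is harmful in excess. Yeast cells that slow their growth typically lower the genes of ribosomes and raise a common set of stress genes driven by the activators Msn2 and Msn4.

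The libraries held between 2309776 and 3579469 counts on genes, from 3252550 to 4914932 reads. PPN1 had 22035 and 25525 counts in manganese CRN/PPN1 cultures and 7216 and 7027 counts in control CRN/PPN1 cultures, against 39 and 3 counts in manganese CRN cultures and 9 and 7 counts in control CRN cultures, which follows the labels, and its interaction of 1.64 did not pass (adjusted p = 0.2). TMM factors ran from 0.508 in CRN in control medium to 1.63 in CRN in manganese. Scaling to library totals moved the median interaction of all genes by -0.82, and interactions are reported relative to the median under TMM, which was -0.02. Since the libraries are bulk RNA, a lower level per cell and fewer cells that carry the transcript cannot be told apart.

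Most genes with an interaction changed in the same direction in both strains or in CRN alone, and further in CRN. The interaction was called for 1538 of 5778 genes (26.6%), with an adjusted p no higher than 0.05 and a log2 difference of 1 or more in size, from edgeR's quasi-likelihood test with Benjamini-Hochberg adjustment. It was higher in CRN/PPN1 for 866 genes (15%) and lower for 672 (11.6%). Of the 866, 472 fell in both strains and 329 were called lower in CRN only, with a median log2 fold change of -1.17 in CRN/PPN1 and -2.97 in CRN. Of the 672, 191 rose in both strains and 381 were called higher in CRN only, with a median of 0.48 in CRN/PPN1 and 2.21 in CRN. The remaining genes were fewer: 9 were called higher in CRN/PPN1 only, 31 were called lower in CRN/PPN1 only, 7 were called in opposite directions, 1 (BSC1) rose in both strains and further in CRN/PPN1, and 55 and 62 were called in neither strain's own response. These classes describe the interaction, which contains both responses, and are no test of their own.

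**Figure D1:**
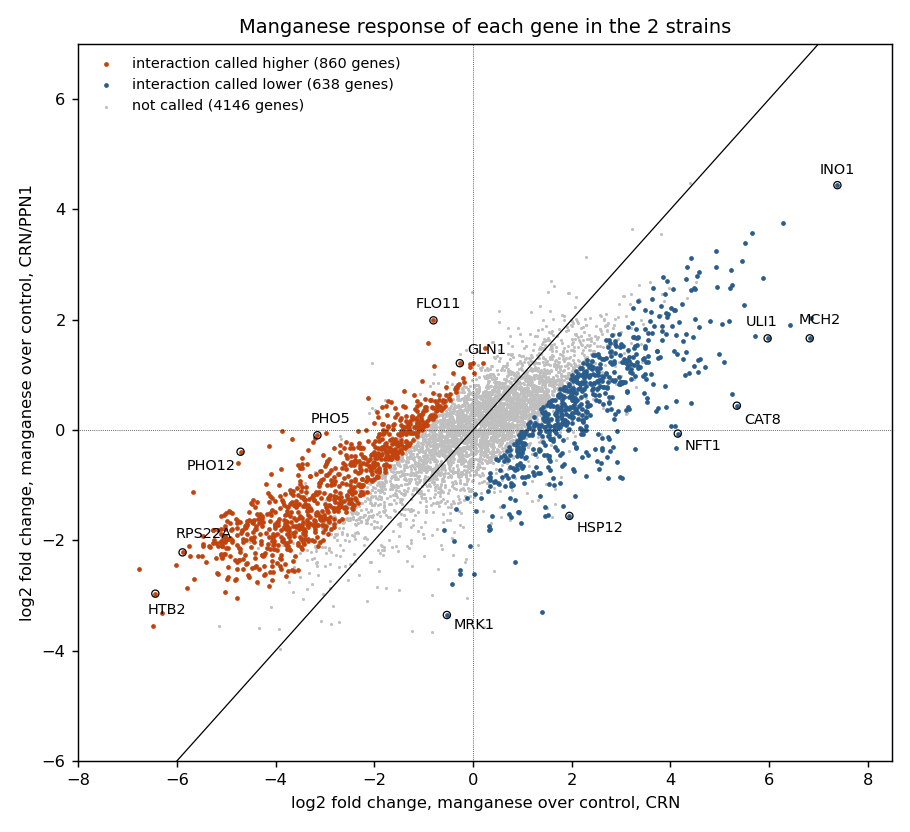
Log2 fold change of manganese over control medium in CRN/PPN1 (vertical axis) against that in CRN (horizontal axis) for the 5644 tested genes with more than 3 counts in at least 1 library of every group; the diagonal marks equal responses. The 860 genes called higher (orange) lie above the diagonal, mostly at the lower left, and the 638 called lower (blue) lie below it, mostly at the right.

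The split between the directions depended on the scaling. With library totals, 366 genes were called higher and 2149 lower, against 866 and 672 with TMM, and no gene was called in opposite directions by both. With upper-quartile scaling 738 were higher and 881 lower. Statements on genes called higher therefore hold relative to the typical gene, and library-total counts are given beside most groups. Those counts are to be read against the 366 higher and 2149 lower of all 5778 tested genes.

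A different response can arise from different levels in manganese, in control medium, or in both. Of the 866 genes called higher, the libraries of the strains did not overlap in either medium for 621, only in manganese for 161, and only in control medium for 84. For the 672 called lower these numbers were 481, 127 and 64. Over all tested genes, neither pair overlapped for 38.2%, the manganese groups alone stood apart for 26.5% and the control groups alone for 19.6%. The genes described next include examples of each pattern.

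**Figure D2:**
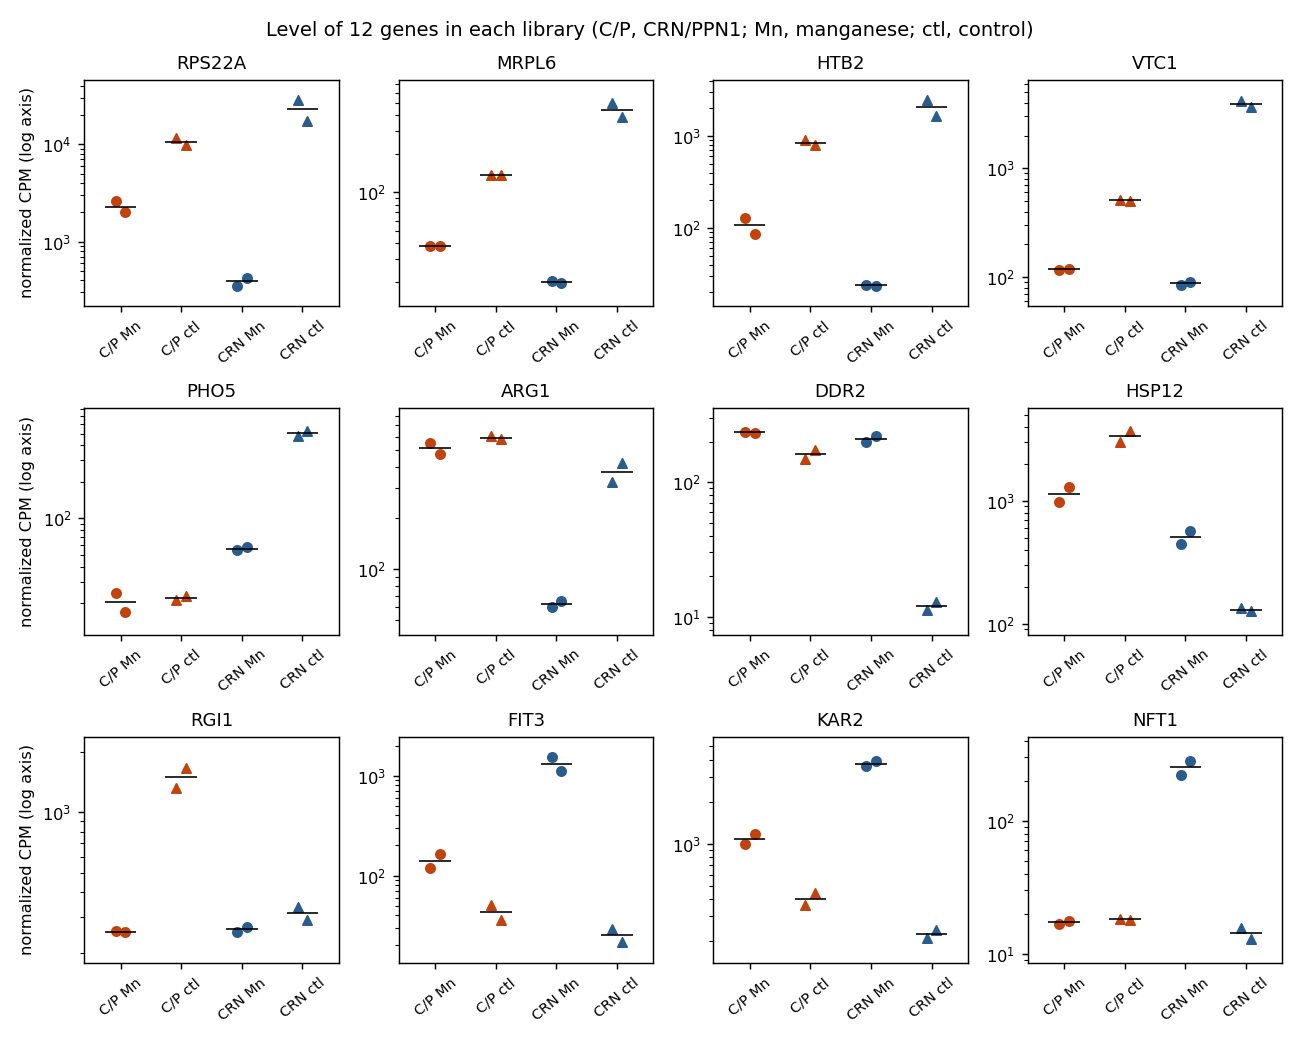
Normalized CPM (log axis) of 12 genes in each library, 2 points per group with their mean as a bar, for CRN/PPN1 (orange) and CRN (blue) in manganese (circles) and control medium (triangles). RPS22A, MRPL6 and HTB2 differ between the strains in both media, PHO5 and DDR2 mainly in control medium, and FIT3, KAR2 and NFT1 mainly in manganese.

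**Figure D3:**
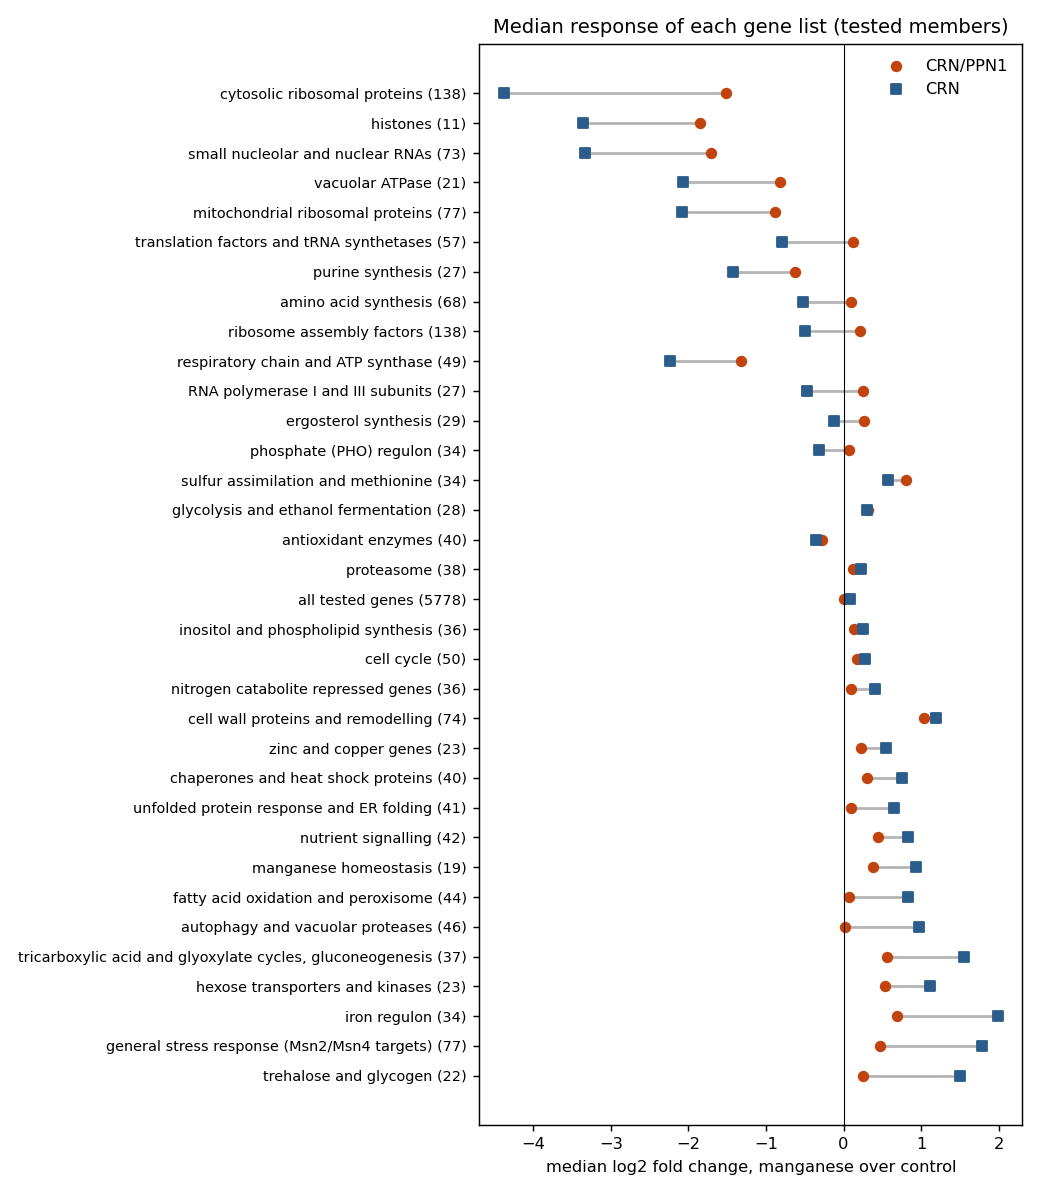
Median log2 fold change of manganese over control medium over the tested members of each gene list (their number in brackets) in CRN/PPN1 (orange circles) and CRN (blue squares), ordered by the median interaction. The medians of cytosolic ribosomal proteins are -1.51 in CRN/PPN1 and -4.38 in CRN, those of iron genes 0.69 in CRN/PPN1 and 1.99 in CRN, and those of all tested genes 0.01 in CRN/PPN1 and 0.09 in CRN.

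Genes of cytosolic ribosomal proteins fell in CRN by far more than in CRN/PPN1. Of 138 tested, 95 were called lower in CRN/PPN1 (all tested genes, 15.1%) and all 138 in CRN (24%), with a median log2 fold change of -1.51 in CRN/PPN1 and -4.38 in CRN, against 0.01 in CRN/PPN1 and 0.09 in CRN over all tested genes. The interaction was called higher for 137 of the 138 (all tested genes, 15%) and lower for 0, with a median of 2.83. With library totals 126 were called higher, and with the trend with gene length removed 129. The exception was RPS28B, with 17.8 and 34.9 CPM in manganese CRN/PPN1 cultures and 40.8 and 28.7 in control CRN/PPN1 cultures, against 40.5 and 55.4 in manganese CRN cultures and 145 and 132 in control CRN cultures and an interaction of 1.12 ± 0.42 (adjusted p = 0.0546).

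RPS22A (YJL190C), a protein of the small subunit, had 2593 and 1996 CPM in manganese CRN/PPN1 cultures and 11530.4 and 9852 in control CRN/PPN1 cultures, against 352 and 427 in manganese CRN cultures and 28577 and 17528 in control CRN cultures. Manganese levels were lower in CRN and control levels were higher in CRN, so the strains stood apart in opposite order in each medium, and the interaction was 3.67 ± 0.45 (adjusted p = 4.58e-05), where ± is the standard error. RPS30B, also of the small subunit, showed another pattern. It had 1762 and 1646 CPM in manganese CRN/PPN1 cultures and 2142 and 1666 in control CRN/PPN1 cultures, against 175 and 214 in manganese CRN cultures and 3325 and 1632 in control CRN cultures. Here the control groups of the strains overlapped, the change in CRN/PPN1 was -0.16 (adjusted p = 0.692), and only the CRN manganese libraries were low, with an interaction of 3.51 ± 0.42 (adjusted p = 4.35e-05). RPL31A, RPS13, RPL42A, RPS10A and RPS10B were the other ribosomal genes among the 12 most positive interactions that were called with any 1 library left out, with values between 3.46 and 3.55. Most ribosomal proteins have a near-identical second copy, and the authors did not count reads that mapped to several places, so the split between copies is uncertain.

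Mitochondrial ribosomal proteins followed in the same direction. Of 77 tested, 53 were called higher in the interaction (all tested genes, 15%) and 0 lower, with a median of 1.35; 35 fell in CRN/PPN1 (all tested genes, 15.1%) and 63 in CRN (24%). MRPL6, of the large mitochondrial subunit, had 37.9 and 37.8 CPM in manganese CRN/PPN1 cultures and 137 and 136 in control CRN/PPN1 cultures, against 20.4 and 19.7 in manganese CRN cultures and 497 and 388 in control CRN cultures, and no 2 groups overlapped. Its log2 fold change was -1.85 in CRN/PPN1 and -4.46 in CRN, and its interaction 2.61 ± 0.28 (adjusted p = 2.92e-05). With the length trend removed 26 of the 77 were called, and with library totals 23.

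Factors that assemble ribosomes moved less than the ribosomal proteins themselves. Of 138 tested, 36 were called higher (26.1%, against 15% of all tested genes) and 0 lower (all tested genes, 11.6%), with a median of 0.71 under TMM. With library totals the count was 10 higher and 6 lower. BRX1, required for the large subunit, had 126 and 127 CPM in manganese CRN/PPN1 cultures and 134 and 118 in control CRN/PPN1 cultures, against 61.7 and 48.9 in manganese CRN cultures and 253 and 242 in control CRN cultures. The CRN/PPN1 libraries overlapped between media (log2 fold change 0.00), whereas CRN fell by 2.16 on the log2 scale, for an interaction of 2.16 ± 0.27 (adjusted p = 4.84e-05). MRT4, which takes part in assembly of the ribosomal stalk, had an interaction of 2.15, and NOP10, a protein of H/ACA small nucleolar particles, one of 2.74.

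The promoters of assembly factors are known for the RRPE element, AAAAATTT on either strand. It was searched in the 300 bases from 101 to 400 before each start codon, with sequence from the RefSeq R64 assembly, and occurred in 15.8% of 5537 such windows. It was found in 20.8% of 825 windows of genes called higher in the interaction and 8.55% of 667 windows of genes called lower. The window of SLX9, another assembly factor, held 0 matches. The stretches of 2 of the factors above are shown with the match in capitals (5′ to 3′ on the strand of the gene); a match is a description of the letters only.
BRX1 (chrXV:186864-186895, minus strand): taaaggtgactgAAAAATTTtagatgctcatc
MRT4 (chrXI:426090-426123, plus strand): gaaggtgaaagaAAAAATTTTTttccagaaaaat

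Translation factors and tRNA synthetases, RNA polymerase subunits and small RNAs showed related patterns. Of 57 translation genes, 23 were called higher (40.4%, against 15% of all tested genes) and 1 lower (1.75%, against 11.6%), with a median of 0.92. With library totals 5 were higher and 2 lower. TIF11, the initiation factor eIF1A, had 502 and 378 CPM in manganese CRN/PPN1 cultures and 1478 and 1203 in control CRN/PPN1 cultures, against 145 and 141 in manganese CRN cultures and 3446 and 2212 in control CRN cultures, with no overlap between any groups and an interaction of 2.70 ± 0.36 (adjusted p = 6.91e-05). The exception was HEF3, a translation elongation factor eEF3 paralog, at -1.80 ± 0.46 (adjusted p = 0.00775), a call that was lost without replicate 1 of CRN/PPN1 in control medium. Of 27 subunits and factors of RNA polymerases I and III, 8 were called higher (29.6%, against 15% of all tested genes) and 1, RET1, lower (3.7%, against 11.6%), with a median of 0.67. With library totals these were 2 higher and 3 lower.

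Of 73 small nucleolar and nuclear RNAs, 28 were called higher (38.4%, against 15% of all tested genes) and 0 lower (all tested genes, 11.6%). The median was 1.44, and the counts were 22 and 3 with library totals. The same 12 included snR63 and snR56, guides of RNA methylation. snR63 had 26.5 and 142 CPM in manganese CRN/PPN1 cultures and 127 and 241 in control CRN/PPN1 cultures, against 2.73 and 6.86 in manganese CRN cultures and 214 and 290.5 in control CRN cultures. The replicates of CRN/PPN1 in manganese differed widely, CRN in manganese was lowest, and the interaction was 4.56 ± 0.81 (adjusted p = 0.000625), between 2.88 and 5.38 with 1 library left out. snR56 had 24 and 100 counts in manganese CRN/PPN1 cultures and 285 and 270 counts in control CRN/PPN1 cultures, against 0 and 5 counts in manganese CRN cultures and 97 and 84 counts in control CRN cultures, with an interaction of 4.24 ± 0.93 (adjusted p = 0.00302), between 2.85 and 7.68 with 1 library left out. These RNAs carry no poly(A) tail, and the kit used selects polyadenylated RNA, so their levels depend on how much of them the libraries retained.

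Gene length moved with the interaction. Over 5 bins of coding length with equal numbers of genes, from 78 to 648 bp in the shortest to at least 2127 bp in the longest, the median interaction was 1.09, 0.15, -0.11, -0.33 and -0.42. In the shortest bin 532 of 1108 genes were called higher and 54 lower, and in the longest 20 and 210 of 1108. The median change of the shortest bin was -1.22 in CRN/PPN1 and -2.29 in CRN, and that of the longest 0.35 in CRN/PPN1 and 0.73 in CRN. When a smooth trend of level on length was removed in every library, 576 genes were called higher and 590 lower. Of the 825 genes with a length called higher before, 441 were called again, and of the 667 called lower, 454. The part of length in any single result was not tested beyond this refit.

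**Figure D4:**
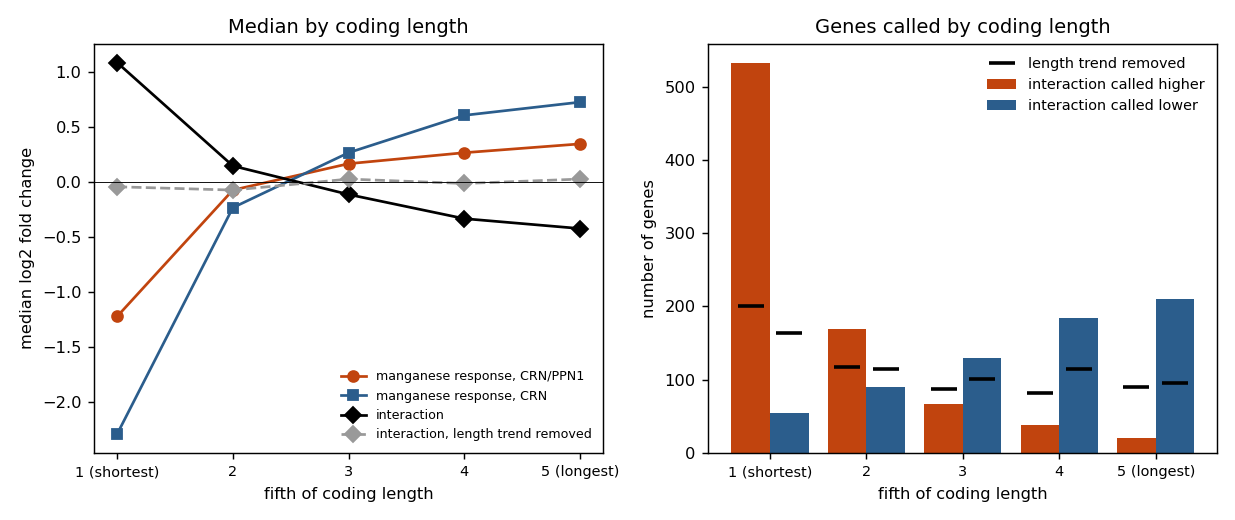
Median log2 fold change (left) and number of genes called in the interaction (right) in 5 bins of coding length with equal numbers of genes; bars start at 0, and dashed line and black marks show the fit with the length trend removed. The median interaction falls from 1.09 in the shortest bin to -0.42 in the longest, and lies between -0.07 and 0.03 with the trend removed.

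Several groups of mostly short genes were called higher in the main comparison and largely lost it in that refit. Of 49 genes of the respiratory chain and ATP synthase, 14 were called higher (28.6%, against 15% of all tested genes) and 2 lower (4.08%, against 11.6%). The median was 0.67, and the counts were 0 and 6 with the length trend removed and 3 and 11 with library totals. Both strains lowered this group, 27 genes in CRN/PPN1 (all tested genes, 15.1%) and 30 in CRN (24%). Its median change, -1.32 in CRN/PPN1 and -2.24 in CRN, was close to that of the shortest bin, -1.22 and -2.29. Whether its fall differs from that of short genes at large was not tested. CYC1, cytochrome c, had 68.3 and 89.1 CPM in manganese CRN/PPN1 cultures and 716 and 581 in control CRN/PPN1 cultures, against 27.8 and 37.4 in manganese CRN cultures and 905 and 891 in control CRN cultures, low in manganese in both strains, with an interaction of 1.74 ± 0.31 (adjusted p = 0.000632) and of 0.30 with the length trend removed. ATP19, a small subunit of ATP synthase, went the same way, with 2.33 and 0.63. The lower calls were GUT2, which feeds electrons from glycerol phosphate, at -1.93, and CYB2, lactate dehydrogenase, at -1.78.

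Histone genes fell in both strains and further in CRN. Of 11 genes for histones and related proteins, 9 fell in each strain (all tested genes, 15.1% in CRN/PPN1 and 24% in CRN). In the interaction 8 were called higher (72.7%, against 15% of all tested genes) and 0 lower (all tested genes, 11.6%), with a median of 1.66. The counts were 3 higher and 1 lower with the length trend removed, and 5 higher and 0 lower with library totals. HTB2 (YBL002W), histone H2B, had 129.5 and 86.5 CPM in manganese CRN/PPN1 cultures and 899.8 and 791 in control CRN/PPN1 cultures, against 24.3 and 23.3 in manganese CRN cultures and 2495 and 1647 in control CRN cultures. All groups stood apart, with CRN both highest in control medium and lowest in manganese, and the interaction was 3.47 ± 0.36 (adjusted p = 2.65e-05), or 2.12 with the length trend removed. HTA2, histone H2A, had an interaction of 2.93, and HTB1 one of 2.39. Genes of the vacuolar proton pump, the V-ATPase, behaved alike: 12 of 21 were called higher (57.1%, against 15% of all tested genes) and 0 lower (all tested genes, 11.6%). The median was 1.37, and the counts were 9 higher and 0 lower with the length trend removed, and 6 higher and 2 lower with library totals. VMA8, a subunit of its catalytic part, had 174 and 173 CPM in manganese CRN/PPN1 cultures and 338 and 319 in control CRN/PPN1 cultures, against 73.8 and 76.1 in manganese CRN cultures and 530.3 and 518 in control CRN cultures and an interaction of 1.89 ± 0.25 (adjusted p = 7.16e-05).

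Genes of amino acid, purine and ergosterol synthesis gave more higher than lower calls under TMM, an order that library totals changed. Over all 5778 tested genes library totals called 366 higher and 2149 lower. Each of these groups had a smaller share of lower calls than that. Of 68 genes of amino acid synthesis, 25 were called higher (36.8%, against 15% of all tested genes) and 2 lower (2.94%, against 11.6%). The median was 0.84, and the counts were 31 and 1 with the length trend removed, but 3 and 5 with library totals. ARG1 (YOL058W), argininosuccinate synthase, had 549 and 478 CPM in manganese CRN/PPN1 cultures and 606 and 582 in control CRN/PPN1 cultures, against 60.3 and 65.5 in manganese CRN cultures and 326 and 419.7 in control CRN cultures. The CRN manganese libraries stood below all others by several fold while the CRN/PPN1 libraries changed by -0.21 (adjusted p = 0.413), and the interaction was 2.36 ± 0.28 (adjusted p = 4.35e-05). HIS1, the first enzyme of histidine synthesis, had a like pattern, at -0.23 in CRN/PPN1 and -2.31 in CRN. The genes called lower were GDH3, a glutamate dehydrogenase, at -1.97, and TYR1, of tyrosine synthesis, at -1.03. GDH3 lost its call with counts on either strand. TYR1 lost its call in 6 of the 8 comparisons that left out a library.

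Of 27 genes of purine synthesis, 12 were called higher (44.4%, against 15% of all tested genes) and 0 lower (all tested genes, 11.6%). The median was 0.87, with 2 higher and 4 lower under library totals. ADE17, which catalyses the last steps to IMP, had 274 and 316 CPM in manganese CRN/PPN1 cultures and 967 and 997 in control CRN/PPN1 cultures, against 73.2 and 64.1 in manganese CRN cultures and 734 and 985 in control CRN cultures, an interaction of 1.91 ± 0.29 (adjusted p = 0.000193). The strains overlapped in control medium, and CRN was lower in manganese. Both strains carry an ade2 allele. Of 29 genes of ergosterol synthesis, 7 were called higher (24.1%, against 15% of all tested genes) and 0 lower (all tested genes, 11.6%). The median was 0.60, with 1 higher and 5 lower under library totals. ERG28, a scaffold of the sterol demethylation complex, had an interaction of 2.60 ± 0.33 (adjusted p = 5.58e-05). ERG25, a sterol oxidase of that complex, was among the few genes called higher in CRN/PPN1 only, by 1.49 (CRN, 0.24) under TMM. Its interaction of 1.25 lost its call with library totals (0.44, adjusted p = 0.276).

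Genes of the general stress response went the other way. Of 77 tested targets of Msn2 and Msn4, 41 were called lower in the interaction (all tested genes, 11.6%) and 2 higher, SOD1 and TRX2, with a median of -1.24. Of them 27 rose in CRN/PPN1 (all tested genes, 10.1%) and 52 in CRN (24.7%), with medians of 0.47 in CRN/PPN1 and 1.79 in CRN. With the length trend removed 42 were lower and 0 higher. With library totals 65 were lower.

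DDR2 (YOL052C-A), a small protein induced by many stresses, had 234 and 233 CPM in manganese CRN/PPN1 cultures and 148 and 174 in control CRN/PPN1 cultures, against 199 and 219 in manganese CRN cultures and 11.2 and 12.9 in control CRN cultures. In manganese the strains lay close together, and in control medium CRN/PPN1 was far above CRN, so that the change with manganese was 0.53 in CRN/PPN1 and 4.11 in CRN, for an interaction of -3.58 ± 0.30 (adjusted p = 7.39e-06). HSP12, a membrane-stabilizing small heat shock protein, was among the 7 genes called in opposite directions. It had 973 and 1289 CPM in manganese CRN/PPN1 cultures and 2994 and 3672 in control CRN/PPN1 cultures, against 440.1 and 562 in manganese CRN cultures and 134 and 125 in control CRN cultures. It fell by 1.56 in CRN/PPN1 and rose by 1.95 in CRN on the log2 scale, with an interaction of -3.51 ± 0.34 (adjusted p = 1.83e-05). HSP30, a stress protein of the plasma membrane, had 213 and 222 CPM in manganese CRN/PPN1 cultures and 77.5 and 102 in control CRN/PPN1 cultures, against 413 and 473 in manganese CRN cultures and 16.1 and 21.4 in control CRN cultures. It rose in both strains, with the control level higher in CRN/PPN1, and had an interaction of -3.28 ± 0.32 (adjusted p = 1.83e-05). HSP42, a small heat shock protein that gathers misfolded proteins, had an interaction of -2.81.

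Msn2 and Msn4 bind the stress response element, AGGGG or CCCCT on the other strand. The element occurred in 23.9% of the 5537 windows, in 19.5% of windows of genes called higher and in 37.5% of windows of genes called lower. Stretches of 4 genes lower in the interaction are shown, 2 from the stress list and 2, RGI1 and MRK1, that fell in CRN/PPN1 alone, with the element in capitals, and the window of GAC1, of the trehalose and glycogen list, held 0 matches.
DDR2 (chrXV:231914-232015, minus strand): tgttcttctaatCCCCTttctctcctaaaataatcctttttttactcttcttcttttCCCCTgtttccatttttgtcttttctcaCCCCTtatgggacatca
HSP42 (chrIV:806397-806455, plus strand): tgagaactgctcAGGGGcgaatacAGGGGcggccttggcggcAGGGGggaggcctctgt
RGI1 (chrV:291775-291864, plus strand): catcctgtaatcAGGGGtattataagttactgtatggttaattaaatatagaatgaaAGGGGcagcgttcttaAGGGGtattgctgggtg
MRK1 (chrIV:314966-315030, minus strand): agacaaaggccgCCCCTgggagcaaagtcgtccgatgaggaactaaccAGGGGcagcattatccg

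RGI1 and MRK1 belong to the 31 genes called lower in CRN/PPN1 only and were chosen after their values were seen. RGI1, a protein of respiratory growth, had 256 and 254 CPM in manganese CRN/PPN1 cultures and 1314 and 1663 in control CRN/PPN1 cultures, against 254 and 270.4 in manganese CRN cultures and 339 and 291 in control CRN cultures. The control libraries of CRN/PPN1 stood several fold above the other 6, among which the manganese libraries of the strains overlapped, and the change was -2.54 in CRN/PPN1 and -0.26 in CRN, with an interaction of -2.28 ± 0.28 (adjusted p = 4.69e-05). MRK1, a kinase related to GSK-3, had 44.0 and 27.3 CPM in manganese CRN/PPN1 cultures and 366 and 365 in control CRN/PPN1 cultures, against 34.3 and 25.0 in manganese CRN cultures and 53.3 and 32.6 in control CRN cultures, again high in CRN/PPN1 control cultures alone, with -2.83 ± 0.39 (adjusted p = 8.19e-05). MPC3, a subunit of the mitochondrial pyruvate carrier, had -3.25, and ATG8, the ubiquitin-like protein of autophagosomes, -2.34.

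Storage carbohydrate genes followed the stress genes. Of 22 genes of trehalose and glycogen metabolism, 13 were called lower (59.1%, against 11.6% of all tested genes) and 0 higher (all tested genes, 15%), with a median of -1.26. The lower calls numbered 9 with the length trend removed and 18 with library totals. In the strains' own responses 6 rose in CRN/PPN1 (all tested genes, 10.1%) and 14 in CRN (24.7%). GSY1, a glycogen synthase, had 55.0 and 97.7 CPM in manganese CRN/PPN1 cultures and 84.1 and 132 in control CRN/PPN1 cultures, against 196 and 198 in manganese CRN cultures and 35.3 and 24.7 in control CRN cultures. It rose only in CRN, which was lower than CRN/PPN1 in control medium, and the interaction was -3.22 ± 0.41 (adjusted p = 5.61e-05). SGA1, a glucoamylase, rose in both strains, by 2.76 in CRN/PPN1 and 5.88 in CRN. TPS1, trehalose phosphate synthase, did not pass at -0.67 ± 0.27 (adjusted p = 0.0739).

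Of 46 genes of autophagy and vacuolar proteases, 13 were called lower (28.3%, against 11.6% of all tested genes) and 0 higher (all tested genes, 15%). The median was -0.71, and the counts were 35 and 0 with library totals. ATG17, a scaffold of autophagosome initiation, had 76.7 and 83.9 CPM in manganese CRN/PPN1 cultures and 130.2 and 138 in control CRN/PPN1 cultures, against 76.5 and 96.2 in manganese CRN cultures and 23.5 and 18.5 in control CRN cultures. Its control level was higher in CRN/PPN1 and its manganese levels overlapped between strains, with an interaction of -2.78 ± 0.31 (adjusted p = 3.54e-05). PRB1, the vacuolar protease B, instead rose in both strains, by 2.60 in CRN/PPN1 and 4.94 in CRN. Chaperones were mixed: 16 of 40 were called lower (40%, against 11.6% of all tested genes) and 7 higher (17.5%, against 15%). The median was -0.35, and the counts were 21 and 2 with library totals. BTN2, which sorts misfolded proteins, had 67.7 and 37.2 CPM in manganese CRN/PPN1 cultures and 53.9 and 45.7 in control CRN/PPN1 cultures, against 294 and 281 in manganese CRN cultures and 18.6 and 15.2 in control CRN cultures, with no rise in CRN/PPN1 (0.07, adjusted p = 0.847) and an interaction of -4.02 ± 0.39 (adjusted p = 1.83e-05). HSP104, the disaggregase, had -1.93, and SSA4, an inducible Hsp70, -2.49. Among those called higher were HSP10 and MGE1, cochaperones of mitochondria, at 2.29 and 1.56; the call of HSP10 ended with the length trend removed and that of MGE1 with library totals.

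Antioxidant genes were called in both directions. Of 40 tested, 9 were called higher (22.5%, against 15% of all tested genes) and 5 lower (12.5%, against 11.6%), with a median of 0.23. The counts were 4 and 9 with the length trend removed (all genes, 576 and 590 of 5537). With library totals they were 3 and 14 (all tested genes, 366 and 2149 of 5778). MXR1, a methionine sulfoxide reductase, had 53.4 and 61.2 CPM in manganese CRN/PPN1 cultures and 61.2 and 58.3 in control CRN/PPN1 cultures, against 25.9 and 20.2 in manganese CRN cultures and 214 and 149 in control CRN cultures, with overlap between the media in CRN/PPN1, a fall in CRN and an interaction of 2.92 ± 0.33 (adjusted p = 3.54e-05). TRX1, a cytosolic thioredoxin, had 3.28. CTT1, the cytosolic catalase, had 84.8 and 74.0 CPM in manganese CRN/PPN1 cultures and 86.5 and 119 in control CRN/PPN1 cultures, against 46.5 and 45.8 in manganese CRN cultures and 14.2 and 21.4 in control CRN cultures. It rose in CRN only, and was higher in CRN/PPN1 in both media, with an interaction of -1.73 ± 0.36 (adjusted p = 0.00193). GTT2, a glutathione transferase, had -2.20.

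The phosphate regulon is the set of genes that the activator Pho4 switches on at low phosphate: acid phosphatases outside the cell, phosphate transporters, and the VTC complex. The list counted here is wider, and its counts do not describe that set alone. It also holds the regulators PHO4, PHO80 and PHO85, the low-affinity transporters PHO87, PHO90 and PHO91, and genes such as DDP1, KCS1 and PPX1. Of 34 tested members, 8 were called higher in the interaction (23.5%, against 15% of all tested genes) and 2 lower (5.88%, against 11.6%), with a median of 0.50. With the length trend removed these were 11 and 1, and with library totals 5 and 7. Of the 8, 7 were called lower in CRN's own response (VTC4 was not), and SPL2, VTC1 and PHM6 were also called lower in CRN/PPN1.

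PHO5 (YBR093C), the main repressible acid phosphatase, had 24.3 and 17.1 CPM in manganese CRN/PPN1 cultures and 21.2 and 23.1 in control CRN/PPN1 cultures, against 54.5 and 58.0 in manganese CRN cultures and 479 and 524 in control CRN cultures. The libraries of CRN/PPN1 overlapped between media and CRN in control medium stood far above all others, so the fold change was -0.10 in CRN/PPN1 and -3.15 in CRN, with an interaction of 3.06 ± 0.31 (adjusted p = 2.11e-05). PHO12, another acid phosphatase, had 6.80 and 4.28 CPM in manganese CRN/PPN1 cultures and 12.7 and 1.74 in control CRN/PPN1 cultures, against 5.06 and 4.63 in manganese CRN cultures and 121 and 134 in control CRN cultures, and an interaction of 4.32 ± 0.75 (adjusted p = 0.000554). It is nearly identical to PHO11, and the split of reads between them is uncertain. SPL2, a regulator of the low-affinity phosphate transporters, had 2.59 and 2.63 CPM in manganese CRN/PPN1 cultures and 28.6 and 33.5 in control CRN/PPN1 cultures, against 17.1 and 8.40 in manganese CRN cultures and 1477 and 812 in control CRN cultures and 2.94 ± 0.69 (adjusted p = 0.00462); its call was lost with the length trend removed.

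VTC1 (YER072W), the small membrane subunit of the polyphosphate polymerase complex, had 116 and 119 CPM in manganese CRN/PPN1 cultures and 506 and 505 in control CRN/PPN1 cultures, against 85.2 and 89.0 in manganese CRN cultures and 4135 and 3648 in control CRN cultures. It fell in both strains, the manganese levels lay close together, and the control level was far higher in CRN, with -2.10 in CRN/PPN1, -5.48 in CRN and an interaction of 3.38 ± 0.29 (adjusted p = 7.42e-06). VTC4, the catalytic subunit, had 60.5 and 62.1 CPM in manganese CRN/PPN1 cultures and 42.9 and 48.7 in control CRN/PPN1 cultures, against 89.9 and 85.5 in manganese CRN cultures and 133 and 209 in control CRN cultures, with an interaction of 1.39 ± 0.32 (adjusted p = 0.00432) that library totals ended. VTC3 had 1.00, just below the limit of the call, and VTC2 and VTC5 did not pass (adjusted p = 0.0727 and 0.508). PHM6, a phosphate-regulated gene of unknown function, had 1.94 and 1.97 CPM in manganese CRN/PPN1 cultures and 12.7 and 9.14 in control CRN/PPN1 cultures, against 1.36 and 2.40 in manganese CRN cultures and 160.5 and 91.0 in control CRN cultures, with 3.56 ± 0.75 (adjusted p = 0.00237). PHO84, the high-affinity phosphate transporter, had 8.09 and 11.8 CPM in manganese CRN/PPN1 cultures and 12.7 and 21.3 in control CRN/PPN1 cultures, against 152 and 180.2 in manganese CRN cultures and 722 and 906 in control CRN cultures; it was higher in CRN than in CRN/PPN1 in both media, and its interaction of 1.53 ± 0.39 (adjusted p = 0.00823) was lost with library totals and without either of 2 CRN/PPN1 libraries.

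Pho4 binds CACGTG, which reads the same on both strands and was found in 4.62% of the 5537 windows, in 4.61% of windows of genes called higher and in 3.6% of those of genes called lower. Stretches around it are shown for 5 members called higher. The windows of PHO84, also called higher, and of PHM7, called lower, held 0 matches.
PHO5 (chrII:431187-431216, minus strand): ccttggcactcaCACGTGggactagcacag
VTC1 (chrV:302637-302666, plus strand): aatagatattagCACGTGtctcggagagaa
PHM6 (chrIV:1022583-1022612, minus strand): gagcttcgctgaCACGTGggaggtgggata
PHO12 (chrVIII:551804-551833, plus strand): tcttggcgttcaCACGTGggtttaaaaagg
VTC4 (chrX:413500-413536, minus strand): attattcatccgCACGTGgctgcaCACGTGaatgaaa

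The 2 members called lower were PHM7 and GDE1. PHM7 (YOL084W), a membrane protein listed with the phosphate-regulated genes, had 335 and 355 counts in manganese CRN/PPN1 cultures and 27 and 29 counts in control CRN/PPN1 cultures, against 831 and 963 counts in manganese CRN cultures and 0 and 0 counts in control CRN cultures. It was 9.53-fold higher in manganese in CRN/PPN1 and, against a floor of 3 counts per library, at least 92.2-fold higher in CRN, so that the interaction was at most -3.28. GDE1, which breaks down glycerophosphocholine, had -1.46 ± 0.40 (adjusted p = 0.0116), a call lost without either of 2 control libraries and with the length trend removed. PHO89, a sodium-coupled phosphate transporter, had 46 and 20 counts in manganese CRN/PPN1 cultures and 1 and 1 counts in control CRN/PPN1 cultures, against 550 and 657 counts in manganese CRN cultures and 23 and 9 counts in control CRN cultures and did not pass in the interaction (adjusted p = 0.5). PHO4 itself had 0.51 (adjusted p = 0.522).

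**Figure D5:**
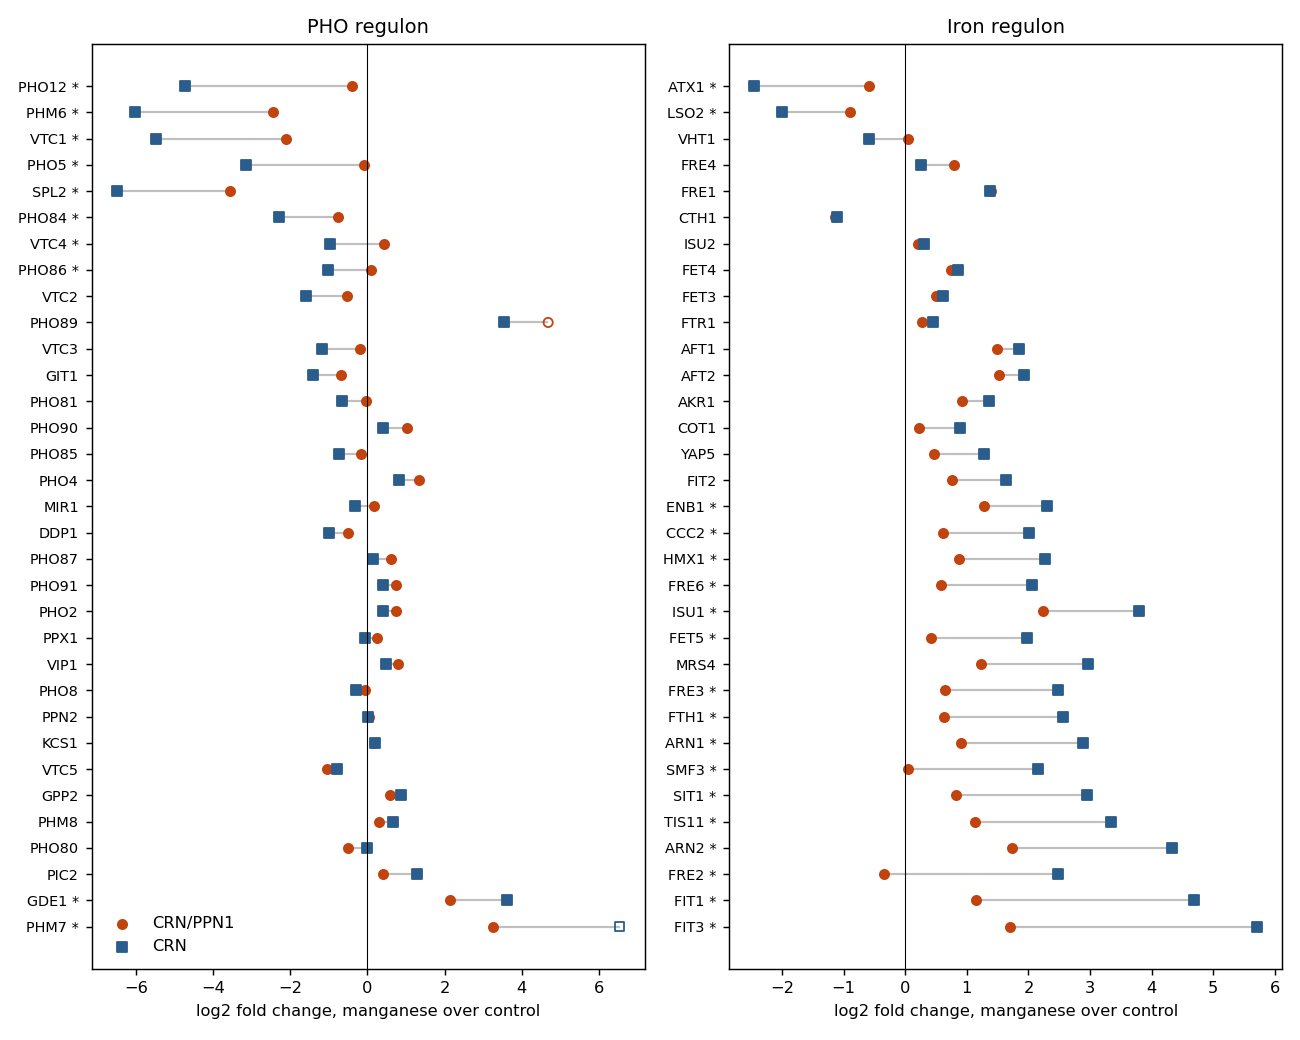
Log2 fold change of manganese over control medium in CRN/PPN1 (orange circles) and CRN (blue squares) for members of the phosphate list (PHO regulon panel) and of the iron regulon. Drawn are 33 of 34 tested members of each, ordered by their interaction. Open symbols are set against a control group with at most 3 counts per library (a lower bound for PHM7, the ratio of summed counts for PHO89). Stars mark genes called in the interaction, and PHO11 and FRE5 are left out because a group was not detected. PHO12, PHM6 and VTC1 fell further in CRN, and FIT3, FIT1 and FRE2 differ most among the iron genes.

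Iron uptake genes rose in CRN and much less in CRN/PPN1. The regulon is driven by the activator Aft1 when iron is low, and comprises reductases, permeases and cell wall proteins that hold siderophores. Of 34 tested members, 16 were called lower in the interaction (47.1%, against 11.6% of all tested genes). The 2 called higher (5.88%, against 15%) were ATX1 and LSO2, and the median was -1.21. Of the members, 10 rose in CRN/PPN1 (all tested genes, 10.1%) and 23 in CRN (24.7%), with medians of 0.69 in CRN/PPN1 and 1.99 in CRN. With the length trend removed 16 were lower and 0 higher, and with library totals 24 and 1.

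FIT3 (YOR383C), a mannoprotein that retains siderophore iron in the wall, had 118 and 162 CPM in manganese CRN/PPN1 cultures and 50.2 and 35.7 in control CRN/PPN1 cultures, against 1534 and 1116 in manganese CRN cultures and 29.1 and 21.4 in control CRN cultures. CRN/PPN1 was somewhat higher than CRN in control medium and far lower in manganese, with 1.71 in CRN/PPN1, 5.72 in CRN and an interaction of -4.01 ± 0.38 (adjusted p = 1.83e-05). FIT1, of the same family, had 21.7 and 12.2 CPM in manganese CRN/PPN1 cultures and 4.90 and 10.4 in control CRN/PPN1 cultures, against 137 and 138 in manganese CRN cultures and 2.48 and 7.87 in control CRN cultures and -3.54. ARN2, a siderophore transporter, had 120.4 and 97.3 CPM in manganese CRN/PPN1 cultures and 32.6 and 32.6 in control CRN/PPN1 cultures, against 421 and 457 in manganese CRN cultures and 11.8 and 31.5 in control CRN cultures, with an interaction of -2.59 ± 0.41 (adjusted p = 0.000277). SIT1, another siderophore transporter, had -2.13, FTH1, an iron permease of the vacuole, -1.92, and FRE2, a ferric reductase, -2.82. The high-affinity pair FET3 and FTR1 did not pass, at -0.12 ± 0.27 (adjusted p = 0.764) and -0.18 ± 0.25 (adjusted p = 0.629).

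Aft1 binds GCACCC, or GGGTGC on the other strand, which occurred in 4.79% of the 5537 windows, in 4.85% of windows of genes called higher and in 8.55% of those of genes called lower. Stretches of 4 members are shown with the matches in capitals, and the window of ARN2 held 0.
FIT3 (chrXV:1061222-1061351, minus strand): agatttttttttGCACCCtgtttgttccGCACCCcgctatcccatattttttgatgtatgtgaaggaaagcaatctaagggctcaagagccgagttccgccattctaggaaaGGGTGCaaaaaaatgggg
FIT1 (chrIV:1505065-1505195, minus strand): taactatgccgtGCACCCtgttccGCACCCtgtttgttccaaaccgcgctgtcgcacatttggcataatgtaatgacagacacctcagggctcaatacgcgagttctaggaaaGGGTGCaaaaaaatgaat
FTH1 (chrII:634956-634985, plus strand): gggttcaaaaatGGGTGCggtgcggccgga
SMF3 (chrXII:212276-212305, minus strand): ctcatggtaaccGCACCCtgttgcccgccc

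Among 19 genes of manganese homeostasis, 5 were called lower (26.3%, against 11.6% of all tested genes) and 1 higher (5.26%, against 15%). The median was -0.62, and the counts were 14 and 0 with library totals. PMC1, a vacuolar pump known for calcium, had 333 and 362 CPM in manganese CRN/PPN1 cultures and 103 and 106 in control CRN/PPN1 cultures, against 734 and 779.7 in manganese CRN cultures and 51.4 and 49.5 in control CRN cultures. It rose in both strains, with the highest level in CRN in manganese, and the interaction was -2.17 ± 0.27 (adjusted p = 4.58e-05). VMR1, an ABC transporter of the vacuole, had 144 and 143 CPM in manganese CRN/PPN1 cultures and 42.0 and 43.1 in control CRN/PPN1 cultures, against 325 and 329 in manganese CRN cultures and 29.1 and 23.6 in control CRN cultures, and -1.88 ± 0.28 (adjusted p = 0.000162). SMF3, a vacuolar metal transporter that is also an iron regulon member, had 91.6 and 131 CPM in manganese CRN/PPN1 cultures and 100 and 116 in control CRN/PPN1 cultures, against 225 and 247 in manganese CRN cultures and 53.9 and 51.7 in control CRN cultures: the libraries of CRN/PPN1 overlapped between media, CRN rose, and the interaction was -2.12 ± 0.30 (adjusted p = 0.000112). BSD2, which directs Smf transporters to the vacuole, had -1.54 ± 0.29 (adjusted p = 0.0011). The uptake transporter gene SMF1 had -1.04 ± 0.27 (adjusted p = 0.00931), a call lost with DESeq2, with the length trend removed and without any of 3 libraries. The member called higher was GDT1, a Golgi transporter, at 1.71 ± 0.40 (adjusted p = 0.00487), lost with library totals. MNC1, PMR1, SMF2, CCC1 and PMA2 were not called (adjusted p between 0.0712 and 0.429), nor was DDP1 (0.301). MNC1 had -1.05, and was called with the length trend removed (-2.78, adjusted p = 0.000199) and with library totals (-1.88, adjusted p = 0.00172). Its interaction ranged from -2.81 to -0.27 over the alternative fits. Of 23 zinc and copper genes, 4 were lower (17.4%, against 11.6% of all tested genes) and 1 higher (4.35%, against 15%). The lower calls of ZAP1, at -1.23, and ZPS1, at -1.07, were lost with DESeq2 and in fits without 1 library. The higher one was the copper transporter CTR1, at 1.43 ± 0.31 (adjusted p = 0.00262). CTR1 rose in CRN/PPN1 only, and its call in the interaction ended with library totals (0.63, adjusted p = 0.161).

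Genes of alternative carbon use rose mostly in CRN. Of 37 genes of the tricarboxylic acid and glyoxylate cycles and gluconeogenesis, 12 were called lower (32.4%, against 11.6% of all tested genes) and 1 higher (2.7%, against 15%). The median was -0.85, and the counts were 7 lower and 1 higher with the length trend removed and 26 and 0 with library totals. Of these genes 7 rose in CRN/PPN1 (all tested genes, 10.1%) and 22 in CRN (24.7%). CAT8 (YMR280C), the activator of gluconeogenic genes, had 22.0 and 17.4 CPM in manganese CRN/PPN1 cultures and 14.3 and 14.8 in control CRN/PPN1 cultures, against 98.5 and 96.5 in manganese CRN cultures and 2.48 and 2.25 in control CRN cultures. In CRN it rose by 5.35, being lowest of all groups in control medium and highest in manganese, whereas the change in CRN/PPN1 was 0.44 (adjusted p = 0.247), and the interaction was -4.91 ± 0.50 (adjusted p = 2.11e-05). ADR1, an activator of glucose-repressed and peroxisomal genes, had 114 and 149 CPM in manganese CRN/PPN1 cultures and 29.8 and 40.9 in control CRN/PPN1 cultures, against 849.6 and 917 in manganese CRN cultures and 9.91 and 10.7 in control CRN cultures. It rose in both strains, further in CRN, with -4.52 ± 0.35 (adjusted p = 7.39e-06). JEN1, the lactate permease, had -3.31, and LSC2, of succinyl-CoA ligase, -1.95.

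Of 44 genes of fatty acid oxidation and peroxisomes, 14 were called lower (31.8%, against 11.6% of all tested genes) and 1 higher (2.27%, against 15%). The median was -0.70, and the counts were 27 and 0 with library totals. Of these genes 3 rose in CRN/PPN1 (all tested genes, 10.1%) and 20 in CRN (24.7%). FOX2, a beta-oxidation enzyme, had 58.6 and 66.8 CPM in manganese CRN/PPN1 cultures and 106 and 140.1 in control CRN/PPN1 cultures, against 182 and 178 in manganese CRN cultures and 52.7 and 53.9 in control CRN cultures. Its change was -0.97 in CRN/PPN1, just short of the call, and 1.75 in CRN, for an interaction of -2.72 ± 0.29 (adjusted p = 2.92e-05). Of 23 hexose transporters and kinases, 9 were lower (39.1%, against 11.6% of all tested genes) and 3 higher (13%, against 15%). The median was -0.92, and the counts were 16 and 0 with library totals. HXT2, a high-affinity glucose transporter, had 785 and 827 CPM in manganese CRN/PPN1 cultures and 173 and 215 in control CRN/PPN1 cultures, against 1165 and 1319 in manganese CRN cultures and 77.4 and 84.8 in control CRN cultures, and rose in both strains, with -1.88 ± 0.29 (adjusted p = 0.000184); HXT4 had 1.61 in the other direction, which library totals ended. Among 28 genes of glycolysis and fermentation, 4 were lower (14.3%, against 11.6% of all tested genes) and 3 higher (10.7%, against 15%), with a median of 0.26. With library totals 10 were lower and 0 higher. In CRN/PPN1's own response 0 members passed the call in either direction (all tested genes, 10.1% higher and 15.1% lower). In CRN 7 rose (all tested genes, 24.7%) and 2 fell (24%).

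The most negative interactions included genes that were high in CRN in manganese and rose less, or did not pass, in CRN/PPN1. MCH2 (YKL221W), related to monocarboxylate permeases, had 15.9 and 4.28 CPM in manganese CRN/PPN1 cultures and 2.45 and 3.92 in control CRN/PPN1 cultures, against 366 and 377 in manganese CRN cultures and 3.10 and 3.37 in control CRN cultures. It was called higher in CRN/PPN1 too, by 1.66 (adjusted p = 0.0228). The replicates of CRN/PPN1 in manganese differed widely, the control groups of the strains overlapped, and the interaction, -5.16 ± 0.86 (adjusted p = 0.000385), was the most negative among genes detected in every group, with a mean of 100 or more normalized counts, and called with any 1 library left out. NFT1, a vacuolar ABC transporter of the MRP family, had 16.8 and 17.8 CPM in manganese CRN/PPN1 cultures and 18.4 and 17.8 in control CRN/PPN1 cultures, against 221 and 282 in manganese CRN cultures and 15.5 and 12.9 in control CRN cultures. The CRN/PPN1 libraries overlapped between media, and the interaction was -4.21 ± 0.36 (adjusted p = 7.39e-06). YKR104W, the open reading frame next to NFT1 that is part of the same gene in some strains, had -3.94 ± 0.56 (adjusted p = 0.000118). TOS3, a kinase that activates Snf1, had 45.0 and 57.9 CPM in manganese CRN/PPN1 cultures and 66.5 and 64.4 in control CRN/PPN1 cultures, against 253 and 292 in manganese CRN cultures and 30.4 and 25.3 in control CRN cultures, with -3.64 ± 0.31 (adjusted p = 7.39e-06). YBR284W, an uncharacterized gene, had -4.82, and RIM8, of the pathway that responds to alkaline pH, -3.84; both also rose in CRN/PPN1, by 2.02 and 1.24.

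Genes of protein folding in the endoplasmic reticulum rose in CRN more than in CRN/PPN1, while small translocon subunits went the other way. Of 41 tested, 10 were called lower (24.4%, against 11.6% of all tested genes) and 4 higher (9.76%, against 15%), with a median of -0.38. The counts were 10 lower and 0 higher with the length trend removed, and 25 and 2 with library totals. KAR2 (YJL034W), the Hsp70 of the endoplasmic reticulum, had 1001 and 1170.4 CPM in manganese CRN/PPN1 cultures and 359.9 and 442 in control CRN/PPN1 cultures, against 3606 and 3905 in manganese CRN cultures and 209 and 240.5 in control CRN cultures. It rose in both strains, by 1.44 in CRN/PPN1 and 4.06 in CRN, and the interaction was -2.63 ± 0.31 (adjusted p = 4.35e-05). ERO1, which oxidizes protein disulfide isomerase, had 286 and 386 CPM in manganese CRN/PPN1 cultures and 163 and 168 in control CRN/PPN1 cultures, against 1372 and 1482 in manganese CRN cultures and 102 and 133 in control CRN cultures, and -2.58 ± 0.30 (adjusted p = 4.35e-05). SIL1, the nucleotide exchange factor of Kar2, had 144 and 147 CPM in manganese CRN/PPN1 cultures and 133 and 144 in control CRN/PPN1 cultures, against 391 and 427 in manganese CRN cultures and 73.1 and 94.4 in control CRN cultures; it rose in CRN only, with -2.21 ± 0.27 (adjusted p = 4.58e-05). ULI1, a gene known to be induced by unfolded proteins, had 62.8 and 66.8 CPM in manganese CRN/PPN1 cultures and 18.8 and 22.2 in control CRN/PPN1 cultures, against 612 and 802 in manganese CRN cultures and 14.2 and 8.43 in control CRN cultures, with -4.31 ± 0.38 (adjusted p = 7.42e-06), among the 12 most negative. The genes called higher, SSS1, SBH1, SBH2 and CPR5, had between 1.32 and 2.27, and between 0.17 and 0.79 with the length trend removed.

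The activator Hac1 binds the unfolded protein response element, searched here as CAGCGTG on either strand. It occurred in 1.5% of all windows, in 1.94% of those of genes called higher and in 1.5% of those of genes called lower. The stretch of KAR2 is shown because this gene carried the element and rose in both strains. The windows of ERO1, ULI1 and PDI1 held 0 matches.
KAR2 (chrX:381155-381185, plus strand): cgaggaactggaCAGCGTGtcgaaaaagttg

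Cell wall genes responded in both strains with similar medians, 1.04 in CRN/PPN1 and 1.19 in CRN. Of 74 tested, 36 rose in CRN/PPN1 (all tested genes, 10.1%) and 38 in CRN (24.7%). In the interaction 13 were called lower (17.6%, against 11.6% of all tested genes) and 11 higher (14.9%, against 15%), with a median of -0.27, and with library totals 35 were lower and 5 higher. GSC2, a glucan synthase of stressed cells, had 947 and 1022 CPM in manganese CRN/PPN1 cultures and 107 and 129 in control CRN/PPN1 cultures, against 3069.9 and 3283 in manganese CRN cultures and 58.2 and 87.1 in control CRN cultures, high in manganese in both strains, with -2.38 ± 0.33 (adjusted p = 9.23e-05). PIR3, a covalently bound wall protein, had 804 and 836 CPM in manganese CRN/PPN1 cultures and 74.7 and 63.1 in control CRN/PPN1 cultures, against 1004 and 892 in manganese CRN cultures and 24.2 and 13.5 in control CRN cultures, with a wider gap between the strains in control medium and -2.09 ± 0.35 (adjusted p = 0.000352). FLO11, a surface glycoprotein of adhesion, had 57.6 and 30.6 CPM in manganese CRN/PPN1 cultures and 15.9 and 6.09 in control CRN/PPN1 cultures, against 62.3 and 54.9 in manganese CRN cultures and 102 and 103 in control CRN cultures; it was called higher in CRN/PPN1 alone, by 1.99, with an interaction of 2.79 ± 0.49 (adjusted p = 0.000615). CCW12, an abundant wall mannoprotein, had 2.42. INO1, which makes inositol phosphate for phospholipids, had 789 and 828 CPM in manganese CRN/PPN1 cultures and 39.6 and 34.8 in control CRN/PPN1 cultures, against 2323 and 2208 in manganese CRN cultures and 11.8 and 15.2 in control CRN cultures. It rose in both strains, by 4.44 in CRN/PPN1 and 7.38 in CRN, and had -2.94 ± 0.33 (adjusted p = 3.54e-05). Of 36 genes of inositol and phospholipid synthesis 4 were higher (11.1%, against 15% of all tested genes) and 2 lower (5.56%, against 11.6%). Both shares lay below those over all tested genes.

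Other groups gave fewer calls under TMM. Of 36 genes under nitrogen catabolite repression 3 were higher (8.33%, against 15% of all tested genes) and 6 lower (16.7%, against 11.6%), with a median of -0.18. Among them were PUT1, proline oxidase, at -2.33, and MEP2, an ammonium permease, at 1.71. The call of MEP2 ended with library totals (0.89). GLN1, glutamine synthetase, chosen after its values were seen, had 1534 and 1572 CPM in manganese CRN/PPN1 cultures and 671 and 671 in control CRN/PPN1 cultures, against 717 and 746 in manganese CRN cultures and 813 and 950.2 in control CRN cultures, and was called higher in CRN/PPN1 only under TMM. Its interaction of 1.48 lost its call with library totals (0.67, adjusted p = 0.0834). Of 34 genes of sulfur assimilation 2 were higher (5.88%) and 3 lower (8.82%), with a median of 0.29. Of 50 cell cycle genes 4 were higher (8%) and 3 lower (6%), with a median of -0.14. All of these shares lay below the 15% higher and 11.6% lower of all tested genes. RNR3, the damage-inducible subunit of ribonucleotide reductase, rose in both strains, by 3.76 in CRN/PPN1 and 6.27 in CRN, with an interaction of -2.51 ± 0.58 (adjusted p = 0.00411). Of 38 proteasome genes 2 were higher (5.26%, against 15% of all tested genes) and 1 lower (2.63%, against 11.6%). The lower one was RPN4, the activator of the others, at -1.96. Of 42 genes of nutrient signalling 0 were higher (all tested genes, 15%) and 7 lower (16.7%, against 11.6%), with a median of -0.50. The lower ones included the kinase YAK1 at -1.64, and with library totals 0 were higher and 29 lower. Of the 5 marker genes of the strains 0 were called in either direction.

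Genes with at most 3 counts in each library of a group are given as ratios of the group's summed counts, scaled to effective library size, with 95% exact binomial intervals that cover counting error only. SPS100, a spore wall protein, had 75 and 90 counts in manganese CRN/PPN1 cultures and 18 and 12 counts in control CRN/PPN1 cultures, against 529 and 744 counts in manganese CRN cultures and 3 and 1 counts in control CRN cultures. Its manganese level was 4.26-fold its control level in CRN/PPN1 (interval 2.87 to 6.51) and 98.5-fold in CRN (38.4 to 362), with an adjusted p of 0.000128 for the interaction. FMP45, a membrane protein of the cell cortex, had 251 and 248 counts in manganese CRN/PPN1 cultures and 17 and 31 counts in control CRN/PPN1 cultures, against 492 and 419 counts in manganese CRN cultures and 2 and 0 counts in control CRN cultures. The ratios were 8.05-fold in CRN/PPN1 (5.98 to 11.1) and 141-fold in CRN (38.9 to 1165), with an adjusted p of 0.00195. EMA35 overlaps YCR099C on the same strand, so that their reads are uncertain. It had 101 and 97 counts in manganese CRN/PPN1 cultures and 1 and 10 counts in control CRN/PPN1 cultures, against 1280 and 1434 counts in manganese CRN cultures and 2 and 1 counts in control CRN cultures, ratios of 13.9-fold in CRN/PPN1 (7.63 to 28.4) and 280-fold in CRN (95.7 to 1358), and a call lost without replicate 2 of CRN/PPN1 in control medium. BSC1, related to cell surface flocculins, had 278 and 138 counts in manganese CRN/PPN1 cultures and 3 and 1 counts in control CRN/PPN1 cultures, against 364 and 330 counts in manganese CRN cultures and 10 and 12 counts in control CRN cultures. Its ratio was 80.6-fold in CRN/PPN1 (31.2 to 297) and 9.76-fold in CRN (6.39 to 15.7), and its call was lost without the same library. The manganese libraries of both strains lay above the control libraries for all 4 genes.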

How the data were processed

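RNA from 8 cultures was sequenced as single-end poly(A) libraries. The authors used Trimmomatic 0.36 for trimming and STAR 2.5.3a for mapping to R64 (sacCer3) and counting of uniquely mapped reads. The deposited files hold raw counts per gene for either strand and each strand. The joint table equals the opposite-strand counts in 57008 of 57008 values, and those counts were used. The strand share was 90.7% to 93.3%.

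The fits used edgeR 4.0.16 in R 4.3.3 (quasi-likelihood F test, two-sided, TMM scaling, 4 groups in one fit, no replicate block). Standard errors come from the F statistic. The call required an adjusted p no higher than 0.05 and a log2 fold change of 1 or more in size. A group whose libraries held no more than 3 counts each was treated as not detected: folds are ratios of summed counts with 95% exact binomial intervals or, where all its libraries were at 0, bounds against 3 counts per library. On simulated counts the interaction fit recovered 181 of 199 changed genes with 12 false calls among 5696. The changed genes were not drawn from the lowest counts and had a log2 interaction of 2 in size, and all others had none. In the data 26.6% of genes were called and the interaction moved with length, so these figures do not give the error rate of the calls here.

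Genes named are the 12 most positive and 12 most negative interactions called with every library left out in turn and averaging 100 or more normalized counts, 4 per direction with a group not detected, those the study names, and up to 4 called members per direction of each list; others are marked as chosen after their values were seen, as are FIT1, SPL2, SSA4, HSP104, SIT1, FRE2, FET3, FTR1 and TPS1. Members and lists were chosen with earlier results of these data known. Alternatives were DESeq2 1.42.0, other scalings and filters, the later quasi-likelihood form, a replicate block, removal of a lowess trend of level on coding length (5537 genes with a length in RefSeq R64), counts on either strand and leaving out each library.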

Additional observations from a re-analysis of the deposited data

Results flagged for a closer look

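The interaction is itself a difference between the strains under the same contrast, and was called higher in CRN/PPN1 for 866 genes and lower for 672. Of these, 7 were called in opposite directions by the strains' own responses, each lower in manganese in CRN/PPN1 and higher in manganese in CRN. HSP12, with an interaction of -3.51, is described with the stress genes. DOA4, a ubiquitin hydrolase, had 25.6 and 19.4 CPM in manganese CRN/PPN1 cultures, against 45.7 and 57.4 in control CRN/PPN1 cultures, and 75.9 and 81.1 in manganese CRN cultures, against 21.1 and 16.3 in control CRN cultures, with an interaction of -3.27. CHA4, an activator of serine breakdown, had 13.3 and 12.8 CPM in manganese CRN/PPN1 cultures, against 22.0 and 30.5 in control CRN/PPN1 cultures, and 58.2 and 55.2 in manganese CRN cultures, against 20.4 and 15.7 in control CRN cultures, with an interaction of -2.65. For both genes CRN/PPN1 was the higher strain in control medium and the lower one in manganese.

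YJR115W had 11.0 and 12.5 CPM in manganese CRN/PPN1 cultures, against 43.2 and 25.2 in control CRN/PPN1 cultures, and 16.5 and 24.4 in manganese CRN cultures, against 8.67 and 5.62 in control CRN cultures, with an interaction of -3.06. YDR003W-A had 4.21 and 5.26 CPM in manganese CRN/PPN1 cultures, against 11.4 and 16.5 in control CRN/PPN1 cultures, and 21.8 and 18.5 in manganese CRN cultures, against 6.82 and 7.87 in control CRN cultures, with an interaction of -3.0. HIM1 had 0 and 3 counts in manganese CRN/PPN1 cultures, against 9 and 19 in control CRN/PPN1 cultures, and 73 and 103 in manganese CRN cultures, against 2 and 5 in control CRN cultures. SLZ1 had 4 and 3 counts in manganese CRN/PPN1 cultures, against 18 and 11 in control CRN/PPN1 cultures, and 45 and 57 in manganese CRN cultures, against 2 and 3 in control CRN cultures. Their fitted interactions of -6.43 for HIM1 and -5.00 for SLZ1 depend on the prior count. From summed counts, the ratio of manganese to control was 0.083 in CRN/PPN1 (95% exact binomial interval 0.0161 to 0.269) and 7.78 in CRN (3.7 to 19.6) for HIM1, and 0.187 in CRN/PPN1 (0.0691 to 0.436) and 6.31 in CRN (2.62 to 19.9) for SLZ1. With counts on either strand the interaction was -1.59 for HIM1 (adjusted p = 0.0605) and -0.67 for SLZ1 (adjusted p = 0.362, edgeR), and neither was called.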

How the results depend on the processing

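The interaction kept its direction in most fits and its counts of 866 higher and 672 lower genes within 1.5 times. The exceptions were the scaling to library totals and the removal of the length trend. Similar counts need not mean the same genes. Many genes lost their call in at least 1 fit without a library, a larger part of those called lower than of those called higher. Library totals gave 366 higher and 2149 lower genes (14.6% and 85.4% of calls, against 56.3% and 43.7%), 1870 and 404 for CRN/PPN1, and 3681 and 609 for CRN, with all genes shifted by a median of -0.82 in the interaction, 0.67 in CRN/PPN1 and 1.48 in CRN. Upper-quartile scaling gave 738 and 881 (45.6% and 54.4%). Without the length trend 576 genes were higher in the interaction, and 326 fell in CRN/PPN1 (341 with the replicate block as well). Without the limit on fold, 1063 genes rose in CRN/PPN1. Leaving out 1 library gave 748 to 926 higher and 464 to 791 lower interactions, 512 to 640 and 775 to 970 in CRN/PPN1, and 1346 to 1473 and 1340 to 1393 in CRN. With the replicate block 903 and 735 interactions were called; same-numbered deviations correlated at 0.0363 to 0.217, so the numbers were not taken as pairs. DESeq2 gave 932 and 588, and counts on either strand 867 and 641. Of 215 called genes with results 133 kept their call in each fit. Library totals lost 47, the length trend 36, upper-quartile scaling 12 and single libraries 7 to 23. ATP15, LSO2 and UMP1 changed sign without the length trend, with -0.00, -0.50 and -0.12 (-0.01, -0.49 and -0.07 with the replicate block), against 1.75, 1.11 and 1.11. The cause was not tested. Groups of 2 libraries and counts under about 3 per library limit calls on rarely read genes.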
